A study of Mus musculus with 24 samples.

Results

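Whole tumors formed by a control line of CT26 were compared with tumor cells purified from tumors of the same line. CT26 is a mouse colon carcinoma line that grows in BALB/c mice with an intact immune system. The members were chosen from the sample titles: the 8 libraries of tumors labelled Sun1 control line 1 and the 2 libraries of purified tumor cells with that label, 10 of the 24 libraries of the series. All 10 carry the genotype label Wildtype. They come from tumors grown from CT26 cells under the skin of the right flank of BALB/c mice and collected at day 14. For the purified group the tumors were dissociated and the tumor cells enriched with a mouse tumor cell isolation kit. The labels do not say how the kit selects them. The series also holds a Sun1 knockout line and a second control line; Sun1 encodes an inner nuclear membrane protein that links the nucleus to the cytoskeleton. From these, 7 knockout tumors, 2 libraries of purified knockout cells, 2 of purified control line 2 and 1 of cultured control line 1 were used for comparison; cultured control line 2 served only to check the line labels. The labels give neither the age nor the sex of the mice, and do not say whether numbered libraries come from separate animals, so p-values measure the spread between libraries. Dissociation and purification were carried out in 1 group only, and their effects cannot be told apart from those of removing host cells.

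Tumors under the skin hold malignant cells together with macrophages, lymphocytes, mast cells, blood vessels and fibroblasts of the host, and RNA of the whole tissue mixes them all. Tumor cells far from a vessel lack oxygen, and the transcription factor HIF then raises genes of glucose uptake, glycolysis and vessel growth through the core letters ACGTG in their promoters. Interferon gamma, made by T and natural killer cells, raises antigen presentation and guanylate-binding proteins in the tumor cells themselves. In bulk RNA, fewer cells of a type and less RNA per cell cannot be told apart.

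The promoters of 6 genes of these programs are shown, since the genes are followed through the results below. Only windows with a match were taken, so these 6 do not show how common a match is. Each run gives the 250 bases before the transcription start, 5′ to 3′ on the gene's strand, from RefSeq on build GRCm38.p6. Capitals mark the letters ACGTG in the first 3, and in the last 3 an interferon core, part of the element bound by interferon regulatory factors, which is the letters GAAA, then any 2 bases, then the same 4 letters again. Both motifs were searched on both strands, and a match on the other strand is marked as well.
Hk2: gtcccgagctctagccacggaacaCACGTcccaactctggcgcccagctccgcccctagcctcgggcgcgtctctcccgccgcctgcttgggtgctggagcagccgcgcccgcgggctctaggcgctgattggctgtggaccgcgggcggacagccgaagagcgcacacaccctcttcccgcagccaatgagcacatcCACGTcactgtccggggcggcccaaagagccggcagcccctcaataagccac
Pgk1: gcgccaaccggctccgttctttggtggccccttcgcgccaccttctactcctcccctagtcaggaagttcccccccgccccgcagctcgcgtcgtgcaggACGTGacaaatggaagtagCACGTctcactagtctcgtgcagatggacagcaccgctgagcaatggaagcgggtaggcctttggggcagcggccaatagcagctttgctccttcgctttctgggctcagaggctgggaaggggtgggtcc
Slc16a3: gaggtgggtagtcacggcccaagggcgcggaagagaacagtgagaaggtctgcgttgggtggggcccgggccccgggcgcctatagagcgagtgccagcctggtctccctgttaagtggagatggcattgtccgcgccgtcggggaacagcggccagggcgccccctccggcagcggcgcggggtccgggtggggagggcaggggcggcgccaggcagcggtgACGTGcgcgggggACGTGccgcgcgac
Gbp2: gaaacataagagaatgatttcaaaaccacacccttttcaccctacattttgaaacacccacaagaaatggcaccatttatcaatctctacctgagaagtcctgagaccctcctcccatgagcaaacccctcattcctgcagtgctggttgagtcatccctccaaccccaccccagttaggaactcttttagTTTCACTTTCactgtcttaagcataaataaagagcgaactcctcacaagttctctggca
Gbp5: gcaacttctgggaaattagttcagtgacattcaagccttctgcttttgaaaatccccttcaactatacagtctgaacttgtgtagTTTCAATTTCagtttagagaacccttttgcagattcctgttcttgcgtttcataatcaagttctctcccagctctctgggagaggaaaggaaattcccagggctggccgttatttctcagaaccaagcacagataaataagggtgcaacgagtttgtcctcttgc
H2-T23: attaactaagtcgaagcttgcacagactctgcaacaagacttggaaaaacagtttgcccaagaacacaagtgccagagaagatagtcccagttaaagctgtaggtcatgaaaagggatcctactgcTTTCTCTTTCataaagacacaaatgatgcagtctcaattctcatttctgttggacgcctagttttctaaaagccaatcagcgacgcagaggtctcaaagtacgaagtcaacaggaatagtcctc
Their positions are Hk2 chr6:82774455-82774704 (minus strand), Pgk1 chrX:106186850-106187099 (plus strand), Slc16a3 chr11:120948817-120949066 (plus strand), Gbp2 chr3:142620413-142620662 (plus strand), Gbp5 chr3:142496684-142496933 (plus strand) and H2-T23 chr17:36032702-36032951 (minus strand). The core ACGTG lay in the window of 12 of the 17 hypoxia genes that had a window and of 9 of 19 glycolysis genes, against 18.5% of the 27025 genes in the table. The interferon core lay in the window of 10 of 14 interferon gamma genes and 9 of 21 type I interferon genes. For class I genes, H2-T23 among them, it was 3 of 16, against 3.46% of all genes. A match describes the sequence only.

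Levels are given as CPM (counts relative to library size, scaled by TMM over all libraries), and the comparison is the log2 fold change, tumors minus purified cells, ± its standard error, from edgeR's quasi-likelihood test with Benjamini-Hochberg adjustment over all genes tested. Gene counts summed to between 14140769 and 24651279 per tumor library, and to 17068356 and 19858260 in the purified libraries. Of 14331 genes tested, 4328 (30.2%) were higher in tumors at an adjusted p under 0.05 and 3390 (23.7%) were higher in purified cells. Counts of list members called below stand against these shares of all genes. The differences were unlike in size. Among the genes higher in tumors 2559 differed at least 2-fold and 1264 at least 16-fold, while among those higher in purified cells 238 differed at least 2-fold and 33 at least 4-fold. The median log2 fold change was 0.06 over all genes tested, 1.49 over the genes higher in tumors and -0.51 over those higher in purified cells. Of the 4328 genes, 1910 were under 0.5 CPM in cultured control line 1, with a median log2 fold change of 4.96, and 2418 were at or over it, with a median of 0.64. Together the 1910 genes took 0.850% to 1.45% of the counts of the tumors, 0.0490% to 0.0578% of those of the purified cells and 0.0172% of those of the culture. They were picked as higher in these tumors and low in this culture, so the choice itself put the tumors highest. Without purified library 1, 3120 genes were higher in tumors and 2426 lower, and 1541 rather than 2418 of the former were expressed in culture. Without purified library 2 the counts were 3279 and 2493.

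The libraries were set against their labels first. Sun1 stood at 171 to 189 CPM in the tumors (median 178) and at 172 and 210 CPM in the purified cells, which overlap (log2 fold change -0.08 ± 0.08, adjusted p = 0.435). CT26 is labelled a colon cancer line, yet 7 of the 14 genes of a list of intestinal epithelium, Epcam and Krt19 among them, had no count in either purified library. The keratin gene Krt18 was present, at 34.1 and 27.2 CPM in purified cells, 7.76 to 12.8 CPM in tumors and 69.2 CPM in culture (-1.54 ± 0.15, adjusted p = 4.26e-07). In 6 genes every cultured and purified library of 1 control line held at least 5 CPM. These levels lay more than 4-fold above every such library of the other line. The 6 genes were found after the values were seen. Syt1, Gnb4 and LOC101056115 were high in line 1 and were read in the tumors at 5.23 to 7.61, 8.12 to 12.2 and 4.79 to 9.57 CPM, while Cnga1, at 11.4 to 13.1 CPM in line 2, was at 0 to 0.122 CPM. Gm4763, however, stood at 11.7 to 19.8 CPM in the tumors, 10.5 to 25.6 in line 2 and 0.104 to 0.179 in line 1, and 1700024B05Rik lay between the lines.

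Leukocyte genes separated the groups. Ptprc, which encodes the leukocyte surface phosphatase CD45, was at 71.0 to 155 CPM in the tumors (median 121) and at 1.55 and 1.97 CPM in the purified libraries. Every tumor lay far above both purified libraries, with tumor 3 the lowest of the 8 (6.13 ± 0.37, adjusted p = 2.36e-07). Of the 12 genes of the pan-leukocyte list 11 were higher in tumors, with a median log2 fold change of 6.01 against 0.06 over all genes. Laptm5, a lysosomal protein of blood cells, stood at 78.5 to 132 against 1.25 and 1.87 CPM, and the lymphoid transcription factor gene Ikzf1 at 13 to 23.9 against 0.179 and 0.311 CPM. The exception was Arhgdib, named after its values were seen, a regulator of small GTPases that the line itself expressed: 244 to 286 CPM in tumors, 244 and 225 in purified cells and 267 in culture.

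Macrophage genes were abundant in tumors and nearly absent after purification. The summed level of 20 macrophage genes was 1286 to 3610 CPM in the tumors (median 2178), 46.6 and 51.9 CPM in the purified cells and 23.4 CPM in culture, and 19 of the 20 were higher in tumors (median log2 fold change 6.13, or 6.09 with Cd163, which had no count in purified cells, set at its bound of 3 counts). C1qa, a chain of the complement component C1q made by macrophages, ranged from 114 to 392 CPM among the tumors (median 207) and stood at 2.63 and 3.89 CPM in the purified cells. The tumors split: 1, 2, 5 and 7 lay at 260 to 392 CPM and 3, 4, 6 and 8 at 114 to 155 CPM. Csf1r, the receptor for macrophage colony-stimulating factor, followed the same order at its ends, with 182 CPM in tumor 5 and 54.5 CPM in tumor 3, against 1.13 and 1.56 CPM after purification (6.21 ± 0.78, adjusted p = 0.000168). Cd68, a lysosomal glycoprotein of macrophages, varied less, at 34.5 to 63.1 CPM against 0.597 and 0.830 (6.17 ± 0.30, adjusted p = 1.99e-09). Among 11 monocyte genes tested 10 were higher in tumors; Ccr2, the receptor that brings monocytes out of the blood, stood at 38.5 to 103 against 1.37 and 1.30 CPM, and Ly6c2 at 20.4 to 50.5 against 3.04 and 3.47 CPM.

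Several of the genes with the largest folds among well-expressed ones were those of myeloid cells. Il1b, the inflammatory cytokine interleukin 1 beta, was at 15.9 to 33.8 CPM in tumors and at 0 and 0.156 CPM in purified cells, 3 counts in all. Its natural antagonist Il1rn ranged from 13.3 CPM in tumor 5 to 44.3 CPM in tumor 8, against 0.239 and 0.259 CPM. Arg1, the arginase of suppressive myeloid cells, stood at 61.8 to 126 CPM against 0.477 and 1.09 CPM (6.78 ± 0.50, adjusted p = 1.81e-06). Mmp12, an elastase of macrophages, stood at 80.5 to 197 against 1.19 and 0.985 CPM, and Plau, the urokinase plasminogen activator, at 56.3 to 145 against 0.537 and 1.04 CPM. Csf2ra, Cd36, Cd84, Clec7a and Lilrb4a, surface receptors of myeloid cells, lay between 13.1 and 94.4 CPM in the tumors and under 1 CPM in both purified libraries.

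Genes of T and natural killer cells were read in all 8 tumors. All 18 genes of the T cell list were higher in tumors (median log2 fold change 6.06, or 5.53 with Cd4, Cd3d and Cd5, which had no count in purified cells, at their bounds); their sum was 67.1 to 139 CPM against 1.56 and 2.98 CPM. Cd8a, of the cytotoxic T cell coreceptor, stood at 12 to 29.1 CPM against 0.239 and 0.0519, and Cd3g, of the T cell receptor complex, at 8.58 to 16.6 CPM against 0.179 and 0.156. Cd4 stood at 0.909 to 2.62 CPM in tumors. Tumor 2 was highest for Cd8a, Cd3g and Cd4. All 13 genes of the natural killer and cytotoxic list were higher as well, with sums of 251 to 452 against 4.48 and 5.45 CPM. Gzmb, the protease granzyme B, stood at 64.9 to 169 CPM against 2.09 and 1.40. Prf1, the pore-forming perforin, stood at 52.1 to 83.5 CPM in 6 tumors and at 25.9 and 23.2 CPM in tumors 5 and 7, against 0.298 and 0.311 CPM (7.46 ± 0.97, adjusted p = 0.000196). Tumors 5 and 7 were thus low for Prf1 and among the 4 high for C1qa. B cell genes were scarce: of 12 listed, 4 were abundant enough to test and 2 were higher in tumors.

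Neutrophil genes were low. S100a8 and S100a9, calcium-binding proteins that fill the neutrophil cytosol, reached 1.66 and 2.97 CPM at most in the tumors, against 0 counts and 3 counts over the purified libraries. Of 9 genes tested in the neutrophil list 7 were higher in tumors, and without purified library 2 it was 5. Mmp9, a gelatinase of neutrophils and other cells, named after its values were seen, went the other way: 9.83 to 26.9 CPM in tumors, 33.8 and 42.7 in purified cells and 0.0546 in culture (-1.20 ± 0.28, adjusted p = 0.0037, 0.054 without purified library 2). Dendritic cell genes were low too, with 11 of 13 higher in tumors and 7 without purified library 1; Itgax, an integrin chain, stood at 11.7 to 19.7 against 0.239 and 0.156 CPM. Mast cell genes separated the groups without overlap. Tpsb2, a tryptase of their granules, lay within a narrow range, 35.5 to 56.0 CPM, against 0.776 and 1.04 (5.65 ± 0.24, adjusted p = 2.38e-10). Cma1, a chymase, stood at 16.9 to 28.3 against 0.298 and 0.259 CPM, and Cpa3, a carboxypeptidase, at 12.2 to 26.2 against 0.239 and 0.363 CPM. Of 9 genes of the mast cell and eosinophil list 8 were higher in tumors; Gata2, a transcription factor named after its values were seen, was lower (25.6 to 35.1 CPM in tumors, 61.8 and 49.0 in purified cells and 37.4 in culture).

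Endothelial genes were mostly higher in tumors, with sums of 124 to 176 CPM against 23.5 and 26.1 CPM in purified cells. Pecam1, an adhesion protein of endothelial junctions, stood at 29 to 41.0 CPM in tumors and at 0.537 and 0.467 CPM in purified cells (6.12 ± 0.22, adjusted p = 6.92e-12). Cdh5, the cadherin of those junctions, stood at 10.8 to 21.6 against 0.119 and 0.259 CPM, and Kdr, the main receptor for VEGF, at 8.84 to 15.9 against 0.179 and 0.207 CPM. Of 18 endothelial genes 16 were higher in tumors; the others, Flt1 and Eng, had log2 fold changes of 0.34 and 0.23. Pericyte genes followed, with 7 of 10 tested higher: Rgs5 stood at 9.46 to 18.2 against 0.298 and 0.311 CPM and Mcam at 15 to 22.7 against 0.298 and 0.415 CPM. Pdgfrb, the PDGF receptor of pericytes and fibroblasts, did not separate the groups (62.4 to 126 against 110 and 104 CPM).

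**Figure D1:**
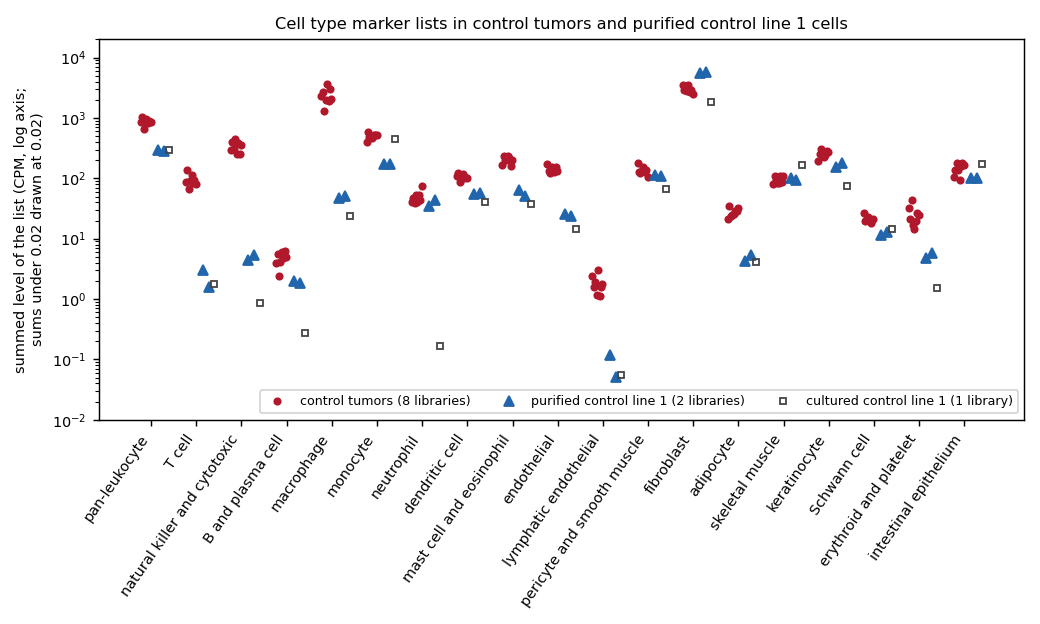
Summed level of each cell type marker list in CPM (log axis), in 8 control tumors (red circles), 2 libraries of purified control line 1 (blue triangles) and 1 cultured library (open squares). The macrophage list lies at 1286 to 3610 CPM in tumors and at 46.6 and 51.9 CPM in purified cells, while the fibroblast list is higher in purified cells, at 5535 and 5882 CPM.

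The levels left after purification are described for markers picked for being present in tumors and absent in culture, so they do not stand for all listed genes. Over 52 markers of leukocyte, T, cytotoxic, macrophage, monocyte, mast and endothelial lists that culture lacked (under 0.5 CPM) and tumors held (mean of at least 5 CPM), the mean level in purified cells was 0.390% to 9.17% of that in tumors, with a median of 1.5%. The median was 1.5% for the pan-leukocyte list, 1.26% for macrophages, 1.04% for T cells, 1.38% for mast cells and 2.61% for endothelium. Over all cell lists 70 markers met these limits, with 0.390% to 352% left and a median of 1.54%. The highest were Lum of the fibroblast list at 352% and Mmp9 of the neutrophil list at 230%. Xist, the RNA that coats an inactive X chromosome, had 1.16% left: 78.7 to 209 CPM in tumors, 1.43 and 1.71 in purified cells and 0.928 in culture (6.43 ± 0.55, adjusted p = 9.33e-06). No gene of the Y chromosome in the list (Ddx3y, Eif2s3y, Uty, Kdm5d) had a count in either purified library. In the tumors too they were too low to test, and the list with Xist summed to 78.7 to 209 CPM there, the range of Xist itself. Their absence therefore does not describe what purification removed. Hba-a1, a globin of red cells, stood at 3.29 to 16 CPM in tumors and 0.298 and 0.207 CPM in purified cells.

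Fibroblast genes did not behave as 1 group. Of 18 genes, 8 were higher in tumors and 6 lower, where 30.2% and 23.7% of all genes were. Without purified library 1 the counts were 5 and 6, without library 2 they were 6 and 4, and with both control lines in the purified arm 8 and 3. The summed level was higher in purified cells, at 5535 and 5882 CPM, than in tumors, at 2475 to 3545 CPM, or in culture, at 1839 CPM; in purified control line 2 it was 3496 and 3535 CPM. Thy1, a surface protein of fibroblasts and T cells, stood at 33.6 to 56.1 CPM against 0.358 and 0.933 CPM, and Postn, a matrix protein of activated fibroblasts, at 5.34 to 11.4 against 0.358 and 0.104 CPM. These shared the low residue of leukocyte genes. Lum, the matrix proteoglycan lumican, had the opposite order: 8.16 to 20.7 CPM in tumors, 39.9 and 59.0 in purified cells and 0.218 in culture (-1.81 ± 0.28, adjusted p = 0.000269). Purified control line 2 held 0.504 and 1.42 CPM of it, below every tumor, and with both control lines in the purified arm the difference was -0.86 (adjusted p = 0.403). Pdgfra, a PDGF receptor of fibroblasts, stood at 40.6 to 67.1 against 81.9 and 98.4 CPM, with 12.9 CPM in culture (-0.73 ± 0.16, adjusted p = 0.00208, 0.050 without purified library 2 and 0.34 with both control lines). Dcn, the proteoglycan decorin, was at 347 to 467 CPM in tumors and at 380 and 647 CPM in purified cells, overlapping, and at 4.09 CPM in culture. Whether stromal cells remained in the purified fraction was not tested.

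The genes highest in purified cells relative to tumors included several with this pattern. They were taken from genes whose groups do not overlap, as in 24.6% of all genes tested with every tumor below both purified libraries. Medag, named for adipogenesis, stood at 8.86 to 15.1 CPM in tumors against 29.8 and 86.2 CPM, and 0.273 CPM in culture (-2.40 ± 0.27, adjusted p = 3.12e-05; -1.44 without purified library 2). Spon2, a secreted matrix protein, stood at 23.1 to 35.9 CPM in tumors, 93.8 and 160 CPM in purified cells and 1.31 in culture (-2.16 ± 0.17, adjusted p = 5.42e-07). Galnt15, a glycosyltransferase, was at 4.74 to 13.5 against 19.7 and 36.2 CPM. In all 3, purified library 2 was above library 1. Purified control line 2 differed from line 1 here, with 4.93 and 6.82 CPM of Medag and 3.67 and 3.75 of Galnt15, below every tumor for both, and 24.8 and 25.5 of Spon2, within the tumors' range; with both lines in the purified arm the differences were -1.56 for Medag (adjusted p = 0.0438), -1.45 for Spon2 (0.0138) and -0.95 for Galnt15 (0.163). A second set was already high in culture. Syt1, a calcium sensor of vesicle release, stood at 5.23 to 7.61 CPM in tumors, 20.2 and 21.8 in purified cells and 14.7 in culture. Pcx, which makes oxaloacetate from pyruvate, stood at 8.44 to 12.4, 34.9 and 32.2, and 40.8 CPM. Line 2 cells held only 0.0458 to 0.210 CPM of Syt1. Its difference was -0.75 (adjusted p = 0.486) with both lines in the purified arm, against -1.28 (adjusted p = 1.03e-05) for Pcx. Nkain1, Dusp9, Hic1, Ssbp3 and Rap1gap also belonged here, with log2 fold changes between -1.67 and -1.55.

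**Figure D2:**
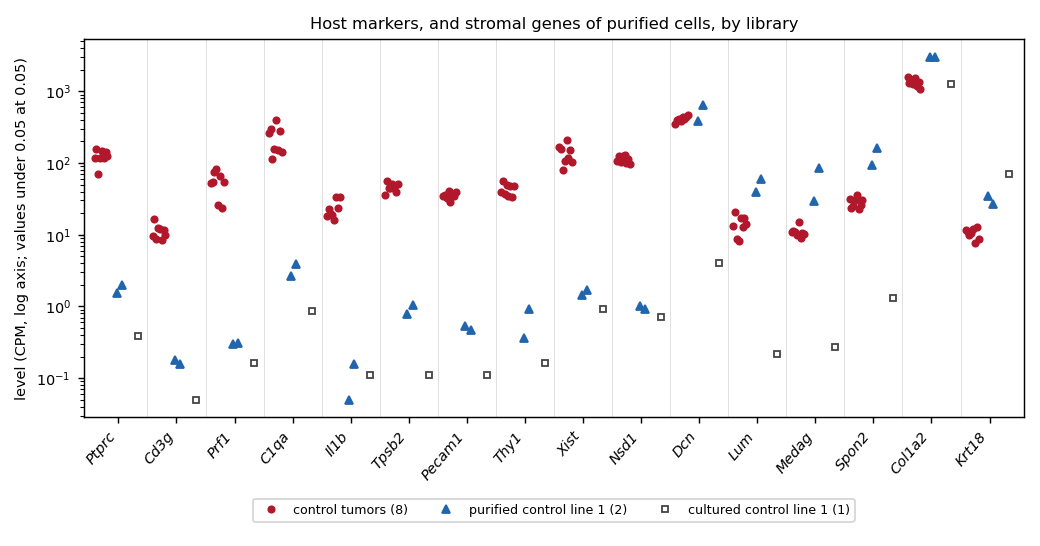
Level of 16 genes in CPM (log axis) in each of 8 control tumors (red circles), 2 purified libraries (blue triangles) and the cultured library (open squares). From Ptprc to Nsd1 every tumor lies above both purified libraries, while Lum, Medag, Spon2, Col1a2 and Krt18 have every tumor below them and Dcn overlaps.

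Collagens of the interstitial matrix were mostly higher in purified cells. Col1a2, which encodes a chain of type I collagen, was at 1072 to 1563 CPM in tumors, 2964 and 3047 in purified cells and 1264 in culture (-1.16 ± 0.11, adjusted p = 4.23e-07). Col1a1, the partner chain, stood at 257 to 400 against 622 and 561 CPM, and Col3a1, of type III collagen, at 527 to 1038 against 1406 and 1425 CPM. The Col3a1 difference was -0.41 (adjusted p = 0.249) with both control lines in the purified arm. Of 15 such collagens tested 8 were higher in purified cells and 4 in tumors (6 and 4 with both control lines in the purified arm), where 23.7% and 30.2% of all genes were; the 4, named after their values were seen, were Col12a1, Col5a2, Col14a1 and Col15a1, with log2 fold changes of 6.29, 3.31, 3.21 and 4.34. Basement membrane genes had the same counts, 8 of 17 lower and 4 higher in tumors, and 5 lower with both control lines in the purified arm. Col4a1, of vessel and tumor basement membranes, stood at 309 to 467 against 500 and 475 CPM (-0.36 ± 0.11, adjusted p = 0.0148, 0.12 without purified library 1 and 0.059 without library 2). Matrix proteases and their inhibitors were mixed, with 8 of 14 higher in tumors and 3, Mmp9, Mmp14 and Timp2, lower (6 higher and none lower without purified library 2). Mmp3, stromelysin 1, was at 66.5 to 124 CPM in tumors against 3.34 and 2.64 CPM (4.98 ± 0.29, adjusted p = 4.83e-08), and Mmp13, a collagenase, at 46.5 to 96.9 against 4.95 and 5.76 CPM (3.72 ± 0.29, adjusted p = 9.51e-07). With both control lines in the purified arm, the Mmp3 difference was 1.46 (adjusted p = 0.11).

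Chemokines and class II antigen presentation were higher in tumors. Of 22 chemokine genes tested 20 were higher in tumors (median log2 fold change 5.50, or 4.94 with Cxcl2, Cxcl3 and Cxcl13 at their bounds). Cxcl9, which draws activated T cells, stood at 43.1 to 107 CPM against 0.836 and 2.13 CPM, and Ccl8, which draws monocytes, at 28.8 to 87.3 against 0.657 and 0.933 CPM. Tumor 3 was the lowest and tumor 2 the highest of the 8 for both. Ccl5 was an exception: 3.96 to 13.3 CPM in tumors against 3.76 and 2.28 CPM did not pass the test (1.24 ± 0.51, adjusted p = 0.0588), and it passed without tumor 2, 3 or 5 in turn (0.038 to 0.044). All 9 genes tested for MHC class II presentation were higher in tumors, with sums of 412 to 1250 against 13.2 and 31.5 CPM. H2-Ab1, a class II beta chain, stood at 26.8 to 101 against 0.657 and 1.09 CPM. For Cd74, the invariant chain, purified library 2 was well above library 1, at 15.4 and 3.94 CPM, against 135 to 465 CPM in tumors; Ciita, the class II master regulator, showed 2.64 and 1.01 against 5.93 to 20.7 CPM. In the complement list 12 of 16 were higher in tumors, where 30.2% of all genes were. C3, the central component, stood at 92.8 to 155 against 25.01 and 49.99 CPM, while C1s1, a protease of the first component, overlapped (303 to 431 against 218 and 400 CPM).

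Class I presentation and interferon genes were high in purified cells as well. The class I list summed to 7029 to 8580 CPM in tumors, 6281 and 7601 in purified cells and 1787 in culture, and 9 of its 19 genes were higher in tumors and 1 lower, against 30.2% and 23.7% of all genes (4 higher without purified library 1, and 6 higher and 8 lower with both control lines in the purified arm). B2m, the light chain of class I, stood at 1761 to 2681 CPM in tumors, 1370 and 1564 in purified cells and 398 in culture (0.68 ± 0.14, adjusted p = 0.000621). Tap1, the peptide transporter, overlapped between groups, at 275 to 358 against 236 and 319 CPM, with 79.5 CPM in culture. H2-T23, a nonclassical class I gene whose promoter is shown above, was set apart: 87.6 to 183 CPM in tumors against 3.28 and 3.42 CPM (5.32 ± 0.28, adjusted p = 2.5e-08). With both control lines in the purified arm its difference was 1.81 (adjusted p = 0.06).

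Interferon gamma genes were higher in tumors by smaller steps. Counts of interferon genes stand against 30.2% higher and 23.7% lower over all genes. In that list 16 of 20 were higher (median log2 fold change 0.88), but without purified library 1 it was 5, and 9 with both control lines in the purified arm. Library 2 was above library 1 for 19 of the 20 genes, with a median ratio of 1.53, against 7063 of all 14331 genes tested. Gbp5, a guanylate-binding protein, stood at 48.1 to 83.2 CPM in tumors, 18.6 and 27.5 in purified cells and 0.928 in culture (1.47 ± 0.27, adjusted p = 0.000801). Its neighbour on chromosome 3, Gbp2, overlapped: 243 to 410 against 173 and 299 CPM, with 22.7 in culture. Irf1, the transcription factor that interferon gamma induces, stood at 141 to 245 against 91.2 and 141 CPM, just short of overlap, with 35.9 in culture (0.70 ± 0.23, adjusted p = 0.0233, 0.24 without purified library 1). Cd274, which encodes the checkpoint ligand PD-L1, had no overlap: 46.7 to 95.1 CPM against 12.7 and 21.1 CPM, with 6.28 in culture (2.08 ± 0.34, adjusted p = 0.000579). Irf8, of both macrophages and interferon response, stood at 42.6 to 79.9 against 2.75 and 1.19 CPM. Type I interferon genes numbered 18 of 30 higher in tumors and 1 lower, and 10 higher without purified library 2; for these, library 2 was above library 1 in 5 of 30. Ifit1, which binds viral RNA, stood at 49.1 to 83 against 36.4 and 34.4 CPM (0.90 ± 0.20, adjusted p = 0.00235), and Isg15 overlapped, at 67.4 to 120 against 84.4 and 61.6 CPM.

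Genes of low oxygen were higher in tumors, although most were also expressed in culture. Of 22 hypoxia genes 19 were higher in tumors and none lower (median log2 fold change 1.31; 18 without purified library 1 and 20 without library 2), where 30.2% of all genes were higher; 19 of the 22 were at or over 0.5 CPM in culture. Vegfa, the growth factor for vessels, stood at 343 to 475 CPM in tumors and at 107 and 135 CPM in purified cells, below the 337 CPM of culture (1.76 ± 0.13, adjusted p = 3.21e-08). Hk2, a hexokinase with 2 ACGTG matches in the promoter window, stood at 120 to 151 CPM against 51.1 and 62.6 CPM, with 112 in culture (1.23 ± 0.11, adjusted p = 1.34e-07). Ndrg1, a stress gene of hypoxic cells, stood at 578 to 1036 against 174 and 368 CPM (1.61 ± 0.31, adjusted p = 0.00144). Lox, which crosslinks collagen, stood at 6.94 to 14.6 against 0.298 and 0.363 CPM. Car9, the carbonic anhydrase often used as a hypoxia marker, did not separate the groups: 15.4 to 31.5 CPM in tumors against 7.76 and 29.8 CPM (0.26 ± 0.42, adjusted p = 0.624). It was lower in tumors by 0.40 without purified library 1 and higher by 1.54 without library 2 (adjusted p = 0.0033).

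Glycolysis shared this order, where 30.2% of all genes were higher in tumors and 23.7% lower. Of 19 genes 13 were higher in tumors and 1, Pfkm, lower (median log2 fold change 0.60, and 0.33 without purified library 1). With both control lines in the purified arm 9 were higher and 1 lower, with a median of 0.25. The list summed to 18443 to 26013 CPM in tumors and to 14392 and 19683 CPM in purified cells. In purified control line 2 it was 22715 and 22840 CPM, within the range of the tumors. Slc16a3, the lactate exporter, stood at 74.6 to 93.4 CPM against 4.60 and 11.9 CPM, with 6.93 in culture (3.38 ± 0.26, adjusted p = 4.88e-07). Pfkfb3, which drives the flux of glycolysis, stood at 21.1 to 31.3 against 0.895 and 1.09 CPM (4.73 ± 0.24, adjusted p = 8.08e-10). Pgk1, an enzyme of the lower pathway with 2 ACGTG matches, stood at 2248 to 4083 against 1138 and 2022 CPM (1.06 ± 0.24, adjusted p = 0.00231). Ldha, which makes lactate, overlapped: 2114 to 3347 against 1605 and 2283 CPM (0.51 ± 0.16, adjusted p = 0.0119, 0.28 without purified library 1). Purified library 2 was above library 1 in 20 of 22 hypoxia genes, with a median ratio of 1.57, and in 18 of 19 glycolysis genes, with a median ratio of 1.39. Between the 2 purified libraries, hypoxia and interferon gamma genes were thus unequal, which 1 library each cannot put to a test.

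**Figure D3:**
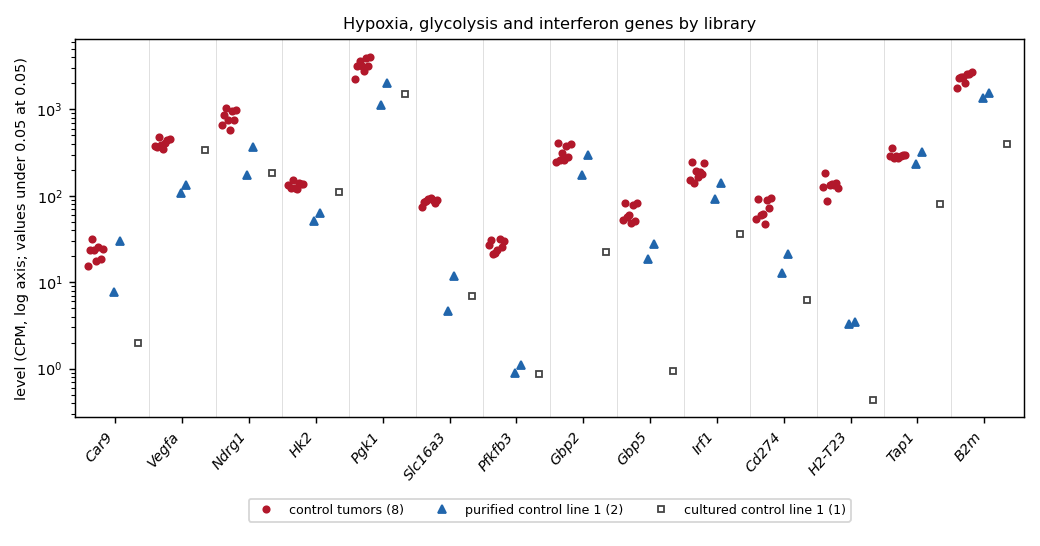
Level of 14 genes of hypoxia, glycolysis, interferon and class I presentation in CPM (log axis) in 8 control tumors (red circles), 2 purified libraries (blue triangles, library 1 left of library 2) and the cultured library (open squares). Library 2 lies above library 1 in every gene drawn; Car9, Gbp2 and Tap1 overlap with the tumors, and H2-T23 stands at 87.6 to 183 CPM in tumors against 3.28 and 3.42 CPM.

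Stress genes differed by family, and their counts stand against 30.2% higher and 23.7% lower over all genes. Immediate early genes, switched on within minutes of a stimulus, were not uniformly higher in either group, with 14 of 24 higher and 3 lower in tumors (10 higher without either purified library in turn). Jun, a subunit of AP-1, was lower: 141 to 225 CPM in tumors against 316 and 335 CPM (-0.84 ± 0.11, adjusted p = 1.48e-05). Its partner Fos stood at 8.35 to 15.3 against 5.79 and 8.97 CPM, and at 167 CPM in culture. Atf3, a stress-induced repressor, stood at 7.93 to 14.1 against 0.119 and 0.104 CPM, and Zfp36, which destabilises cytokine mRNA, at 25.6 to 37.5 against 12.2 and 14.5 CPM. Heat shock genes had 9 of 20 higher and 3 lower (5 higher without purified library 2, and 8 lower with both control lines in the purified arm): Hspa1a, the inducible HSP70, stood at 6.82 to 15.1 against 0.537 and 0.519 CPM, while the abundant chaperone Hsp90ab1 stood at 2635 to 3138 against 5607 and 5364 CPM (-0.90 ± 0.09, adjusted p = 8.51e-07). Hmox1, which breaks down heme, stood at 38.1 to 90.8 against 10.2 and 11.1 CPM (2.52 ± 0.31, adjusted p = 5.43e-05). Of the NF-kappaB targets 14 of 21 were higher and 3 lower; Tnfaip3, an inhibitor of the pathway, stood at 40.7 to 52.8 against 23.3 and 30.3 CPM, and the cytokine Tnf at 2.67 to 8.80 against 0.179 and 0.104 CPM. Among TGF-beta targets 9 of 19 were higher and 4 lower (median log2 fold change 0.23), while their summed level was 4217 to 6149 CPM in tumors (median 4606) and 5435 and 6914 CPM in purified cells. Tgfbi, a matrix protein induced by TGF-beta, stood at 58.1 to 138 against 1.49 and 2.07 CPM. Genes of the unfolded protein and integrated stress responses had 14 of 25 higher and 2 lower, but 4 higher without purified library 2, and targets of the oxidative stress factor NRF2 had 4 of 18 higher and 9 lower.

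Genes of the cell cycle were mostly higher in purified cells, by small amounts. Of 30 S phase genes 19 were lower in tumors and none higher (median log2 fold change -0.31; 10 lower without purified library 1), and of 30 G2 and M phase genes 18 were lower and 3 higher, where 23.7% of all genes were lower. Mcm6, of the replicative helicase, stood at 140 to 170 CPM in tumors against 350 and 302 CPM (-1.01 ± 0.08, adjusted p = 5.07e-08). Cdc20, which activates the anaphase-promoting complex, stood at 119 to 154 against 409 and 378 CPM (-1.49 ± 0.08, adjusted p = 1.99e-09), and the mitotic kinase gene Plk1 at 52.1 to 68.9 against 126 and 113 CPM. Mki67, the proliferation marker Ki-67, went the other way, at 275 to 344 CPM in tumors against 204 and 189 CPM (0.66 ± 0.09, adjusted p = 1.27e-05). Ribosome assembly and translation factors had 11 of 24 lower and 1 higher, with Noc2l at 94.5 to 109 against 194 and 174 CPM. Most cytosolic ribosomal proteins were not called, with 2 of 30 higher and 5 lower (2 lower without purified library 1). Rplp0, of the ribosomal stalk, was among the lower, at 2313 to 2694 against 3910 and 4189 CPM (-0.69 ± 0.09, adjusted p = 9.98e-06), as was the elongation factor gene Eef2, at 4168 to 5070 against 6228 and 6406 CPM.

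Sterol genes were mostly lower in tumors, where 23.7% of all genes were lower and 30.2% higher. Of 23 genes of cholesterol synthesis 18 were lower in tumors and 1 higher (median log2 fold change -0.67; 11 lower without purified library 2). Mvd, an enzyme of the mevalonate pathway, stood at 12.3 to 20.2 CPM against 37.5 and 42.1 CPM, with 88.9 in culture (-1.44 ± 0.13, adjusted p = 2.83e-07). Mvk, a kinase earlier in it, stood at 15.3 to 24.6 against 40.9 and 44.5 CPM, Hmgcs1, the synthase at the entry, at 116 to 183 against 214 and 265 CPM, and Acss2, which makes acetyl-CoA from acetate, at 6.17 to 13.8 against 25.3 and 28.7 CPM. Tumor 5 was the highest of the 8 for each of these 4 genes. The Hmgcs1 difference was -0.38 (adjusted p = 0.145) with both control lines in the purified arm.

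Mitochondrial and nuclear genes of respiration differed in opposite directions, where 30.2% of all genes were higher in tumors and 23.7% lower. Of 13 genes encoded in mitochondrial DNA 12 were higher in tumors (median log2 fold change 1.22), and of 28 nuclear genes of oxidative phosphorylation 16 were lower and 2 higher (median -0.31). COX1, of cytochrome oxidase, stood at 8335 to 14813 CPM in tumors against 3828 and 3869 CPM, with 4048 in culture (1.68 ± 0.19, adjusted p = 1.9e-06). ND6, encoded on the other strand, stood at 137 to 226 against 37.1 and 40.2 CPM (2.21 ± 0.19, adjusted p = 6.88e-07). Tumor 1 was the lowest of the 8 for COX1 and ND6. Uqcrc1, a nuclear subunit of complex III, stood at 61.4 to 79.0 against 139 and 132 CPM, without overlap (-0.96 ± 0.09, adjusted p = 1.57e-07). RNAs kept in the nucleus were also higher in tumors, in 4 of 4 tested: Neat1, the scaffold of paraspeckles, stood at 485 to 750 against 49.2 and 53.6 CPM (3.47 ± 0.18, adjusted p = 2.38e-09), Malat1 at 451 to 1203 against 117 and 132 CPM, and the antisense RNA Kcnq1ot1 at 18 to 27.6 against 1.55 and 2.02 CPM. Summed levels of the mitochondrially encoded list were 13397 and 14417 CPM in purified cells and 16847 CPM in culture. For the nuclear-retained list they were 167 and 188 CPM, and 166 CPM in culture. For both kinds of RNA, preparation and removal of host cells cannot be told apart here. Their part in the other differences was not tested. Nsd1, a histone methyltransferase, stood at 96.7 to 128 CPM in the control tumors, 1.01 and 0.933 CPM in purified cells, 0.710 CPM in culture and 0.275 and 1.83 CPM in purified control line 2 (6.85 ± 0.20, adjusted p = 8.9e-13). Ahnak, a giant scaffold protein, stood at 2586 to 3098 against 1137 and 1107 CPM (1.38 ± 0.10, adjusted p = 2.86e-08).

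**Figure D4:**
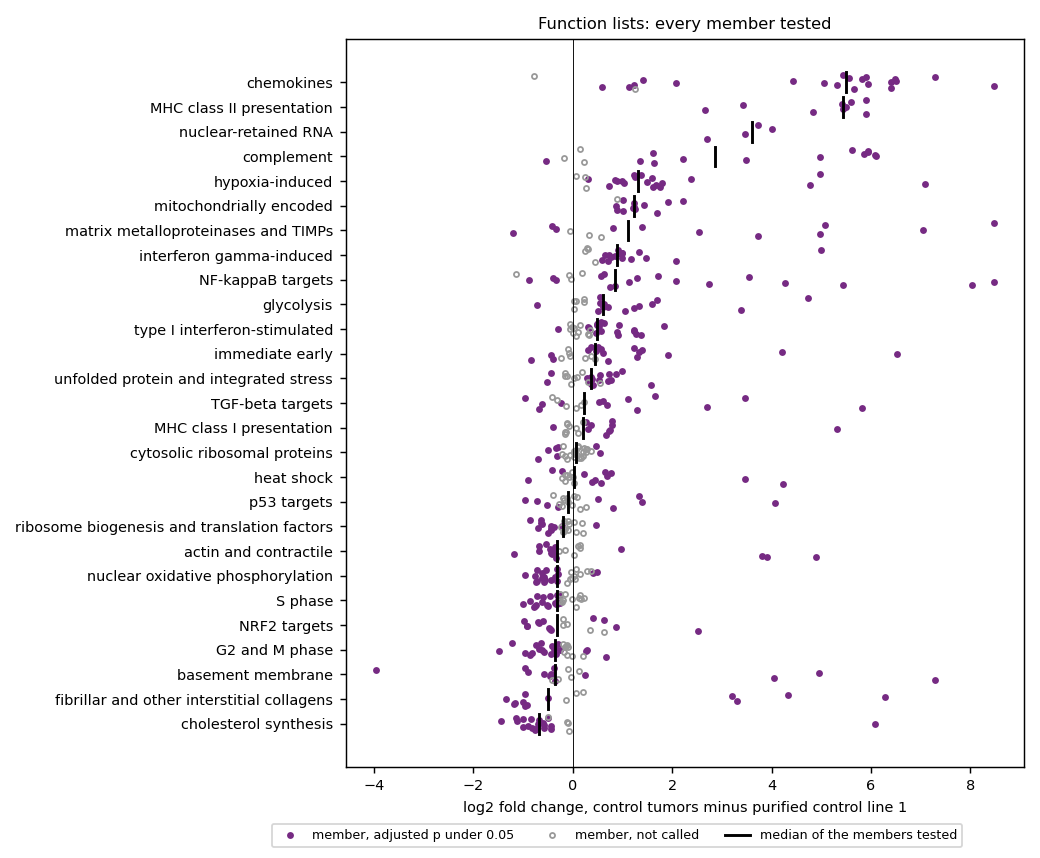
Log2 fold change, tumors minus purified cells, of every tested member of 27 function lists, sorted by median (black bar); filled points passed an adjusted p under 0.05. The median is -0.67 for cholesterol synthesis, 5.43 for class II presentation and 5.50 for chemokines (4.94 with 3 genes without a purified count at their bounds), with hypoxia at 1.31 and the cell cycle lists at -0.31 and -0.35.

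The knockout line offered the same comparison in other libraries, 7 knockout tumors against 2 purified knockout libraries. Of 14569 genes tested there, 4536 (31.1%) were higher in tumors and 3683 (25.3%) lower. Of the genes higher in tumors 3021 were shared, 69.8% of the control line's and 66.6% of the knockout line's; of those lower 2392 were shared, 70.6% and 64.9%. The difference of the 2 effects was tested in 1 model: of 15033 genes, 792 (5.27%) had a larger tumor minus purified difference in the control line and 725 (4.82%) a smaller one. When 1 purified library was left out, these were 316 to 485 and 230 to 357. In knockout tumors 20 of 20 macrophage, 17 of 18 T cell and 18 of 18 endothelial genes were higher, and 10 of 18 fibroblast genes higher and 2 lower. The difference between lines passed for 4 of 12 pan-leukocyte genes. It was smaller in the control line for 3, Ptprc (-2.40) and Cd53 (-2.74) among them, and larger for 1. The summed pan-leukocyte list had a median of 1102 CPM in knockout tumors and 858 CPM in control tumors. These folds also rest on the low residue in 2 purified libraries per line. The difference passed for none of 18 T cell genes, 1 of 20 macrophage genes, 2 of 18 endothelial genes and 3 of 18 fibroblast genes. Type I interferon genes had 18 of 30 higher in control tumors. In knockout tumors 1 of 30 was higher and 19 lower than in purified knockout cells. Of the 30, 24 passed the test of the difference. For interferon gamma genes 12 of 20 passed it, and for class I genes 8 of 19. The type I list summed to a median of 5675 CPM in knockout tumors and 4433 CPM in control tumors. In purified knockout cells it was 8345 and 8601 CPM, and in purified control cells 3517 and 3756 CPM. Knockout and control tumor medians were 4105 and 3291 CPM for the interferon gamma list and 9104 and 7816 CPM for the class I list. In cholesterol synthesis the difference passed for 9 of 23 genes, all with the lower value in the control line.

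Single genes show where the levels lay. Mmp3 stood at 66.5 to 124 CPM in control tumors against 3.34 and 2.64 CPM in the purified cells, and its difference exceeded that of the knockout line by 4.53 (adjusted p = 2.57e-07). H2-T23 exceeded it by 2.60 (adjusted p = 0.000636), Cd274 by 1.78 (adjusted p = 0.00387) and Vegfa by 1.24 (adjusted p = 0.00923). Lum was lower by 4.58 (adjusted p = 0.000495) and Hmgcs1 by 1.20. Cask, a scaffold kinase, stood at 13.1 to 19.2 CPM in control tumors and 21.7 and 21.5 in purified control cells, but at 0 and 0.136 CPM in the purified knockout cells, where knockout tumors held 2.63 to 6.42 CPM; its difference between lines was -6.44 (adjusted p = 2.25e-08). Sfmbt2, a polycomb gene, had the reverse arrangement: 4.30 to 6.77 CPM in control tumors, 0.119 and 0.0519 in purified control cells and 7.20 and 8.95 CPM in purified knockout cells. Whether each line is 1 clone is not given in the labels.

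**Figure D5:**
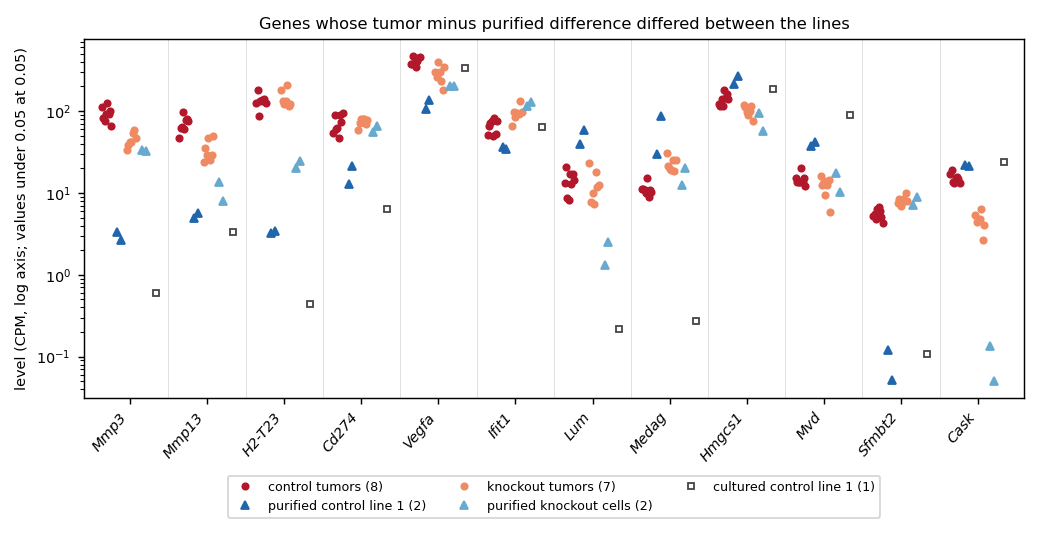
Level of 12 genes in CPM (log axis) in control tumors (red circles) and purified control line 1 (dark blue triangles), knockout tumors (orange circles), purified knockout cells (light blue triangles) and cultured control line 1 (open squares). Purified control cells lie far below purified knockout cells for Mmp3, H2-T23 and Sfmbt2, and above them for Lum, Hmgcs1, Mvd and Cask.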

How the data were processed

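RNA of 24 libraries was sequenced, and 10 of them enter the main comparison. FastQC, STAR, RSEM, DESeq2 and build mm10 are named in the submitters' processing notes; their versions are not given in the sources used here. The authors deposited RSEM expected counts and TPM per gene (TPM is not printed here), and comparison tables that were not used. Expected counts were rounded to whole numbers. Genes passing filterByExpr of edgeR (minimum count 10, minimum total 15) were fitted with TMM factors by edgeR 4.0.16 (quasi-likelihood, robust) in R 4.3.3, with the group as the factor and no covariate. Genes with an adjusted p under 0.05 were called. DESeq2 1.42.0, other scalings and filters, left-out libraries and both control lines in the purified arm were alternatives. Counts for the control comparison were simulated over 14331 genes. Of these, 67, 67 and 66 genes with higher counts were changed 1.5-, 2- and 4-fold, up and down in equal parts. All other genes were kept equal between the groups. Of the changed genes 50.7%, 89.6% and 98.5% were recovered. In the real data far more genes differed, mostly by larger folds upward, so these rates do not hold for genes with low counts or for the real mix. Fold changes and list medians are those of the fit, also for list genes with no purified count. Only medians given with genes at their bounds set such genes at a bound of 3 counts over both libraries. Pairs of same-group libraries differed beyond sampling noise.

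Genes named are taken from these: the 12 with the largest fold change each way among called genes of at least 20 CPM in the higher group without overlap, the 8 with the largest CPM difference each way, the first 3 and the 3 with the smallest p of each of 47 gene lists, the 8 with the smallest p of the difference between lines, and Sun1, Nsd1 and Krt18. Predicted models and receptor segments were left out. Exceptions within a list, and the 6 genes that separated the control lines by the limits given above, were chosen after their values were seen. The members and lists were chosen with earlier results of these data known. Promoter windows came from a RefSeq table and not every gene had one. Results for some genes are not reported here.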

Additional observations from a re-analysis of the deposited data

Results flagged for a closer look

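Among the 8 control tumors, 198 genes and list sums were searched for a single library far from the other 7 by Dixon's test, and 10 were found; chance flags about 1 in 20 groups. Tumor 2 stood apart as the highest in 4 of them: Cd3e at 6.95 CPM against 1.98 to 4.17 in the others, Cd3g at 16.6 against 8.58 to 12.2, Cxcl12, a chemokine of stromal cells, at 15.9 against 7.70 to 11.4, and Tap1 at 358 against 275 to 300. Tumor 3 was the lowest for Ptprc, at 71.0 CPM against 117 to 155, and for the microfibril gene Mfap5, at 4.81 against 7.56 to 9.08. Tumor 5 was the highest for Mvd, at 20.2 CPM against 12.3 to 15.3, and for Medag, at 15.1 against 8.86 to 11.1. Tumor 7 was the lowest for Mcm6, at 140 CPM against 158 to 170, and tumor 8 the highest for the summed level of the neutrophil list, at 75.3 CPM against 39.2 to 53.3.

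Among the genes named in the text, 33 are printed here because the tumor minus purified difference itself differed between control line 1 and the knockout line (adjusted p under 0.05, edgeR, passed by 792 and 725 of all genes tested, difference of the log2 fold changes, control minus knockout). It was larger in control line 1 by 1.76 for Nsd1, 0.53 for Tap1, 2.60 for H2-T23, 1.15 for Gbp5, 1.78 for Cd274, 1.27 for Ifit1, 1.24 for Vegfa, 0.82 for Hk2, 4.53 for Mmp3, 2.06 for Mmp13, 1.16 for Zfp36 and 5.91 for Sfmbt2. It was smaller in control line 1 in the other 21, with differences of -2.40 for Ptprc, -2.74 for Cd53, -1.76 for Pecam1, -1.75 for Dcn, -4.58 for Lum, -3.80 for Fabp4, -0.37 for Mcm6, -0.48 for Cdc20, -1.20 for Hmgcs1 and -1.24 for Mvd. The rest were -1.26 for Acss2, -0.92 for Tpm2, -2.90 for Medag, -1.39 for Spon2, -2.53 for Galnt15, -1.28 for Syt1, -0.79 for Nkain1, -0.67 for Pcx, -1.08 for Ssbp3, -6.44 for Cask and -5.79 for Prkx.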

How the results depend on the processing

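Library sizes without scaling factors gave 4653 genes higher and 2906 lower in tumors, 61.6% higher among calls against 56.1%, with the median of all genes moved by 0.045. Leaving out 1 tumor gave 4107 to 4311 higher and 3224 to 3716 lower; leaving out 1 purified library gave 3120 and 3279 higher and 2426 and 2493 lower. DESeq2 gave 4411 and 3484, and both control lines in the purified arm 4188 and 4038. Without a filter 415 genes were at least 2-fold lower in tumors. With a mean of at least 5 CPM, 1001 were at least 2-fold higher, 120 at least 2-fold lower and 478 higher genes were under 0.5 CPM in culture. Leaving out 1 library, 1541 (purified library 1) to 2444 higher genes were expressed in culture. For the difference between lines, leaving out 1 purified library gave 316 to 485 larger (399 and 339 without control library 1 and 2) and 230 to 357 smaller (344 and 285), against 978 and 1052 by DESeq2.

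The difference between libraries 1 and 2 was hardly correlated over genes between tumors and purified cells (r = 0.0413 in control line 1 and -0.0502 in the knockout line). With 1 such difference per line, and host RNA mostly in the tumors, this cannot settle whether equal numbers mark a shared animal. A replicate block gave 3416 genes higher and 2499 lower, and for the difference between lines 803 and 713. Of 151 genes named, 120 kept their direction and side of the threshold in all 18 alternatives and 20 lost the call in at least 1; of the 33 whose difference between lines was called, 12 kept it in all 9 alternatives and 21 lost it in at least 1. Log2 fold changes that changed sign were, without purified library 1 and 2, Car9 (-0.40 and 1.54), C1s1 (-0.16 and 0.72), Tap1 (-0.10 and 0.34), Dcn (-0.65 and 0.12) and Sun1 (-0.22 and 0.0707), and with both control lines Arhgdib (-0.0225), Dcn (0.52), Tap1 (-0.17) and Gbp2 (-0.0892); the cause was not tested. With 2 purified libraries, small differences rest on few values.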
